A study of Mus musculus with 8 samples.

Results

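Coagulation and fibrinolysis are represented here by 9 genes: F3, Tfpi, Thbd, Procr, Plau, Plaur, Plat, F13a1 and F10. The rule that chose them is a list of names and uses no measured value, but the list was drawn up with earlier results of these data known. Every array probe that carries one of these names was used. All 9 are on the array, with 16 probes in all, and all 9 passed the filter on dim probes, so that they are 9 of the 25830 genes tested. Each gene is given by its brightest probe, which was well above background on all 8 arrays for every one of the 9.

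The lungs came from 8 male bone marrow chimeras, mice whose marrow had been replaced by that of a donor, aged 22 weeks and harvested 72 hours after diphtheria toxin (DT). Donors and recipients were wild type or LysM-DTR. LysM-DTR mice carry the diphtheria toxin receptor under the lysozyme M promoter, so that the toxin can kill cells in which that promoter is active: macrophages, monocytes, neutrophils and, in the lung, also the surfactant-making alveolar type 2 cells. The groups are named by donor and then by recipient. LL mice had LysM-DTR marrow in LysM-DTR recipients, WL mice wild-type marrow in LysM-DTR recipients, LW mice LysM-DTR marrow in wild-type recipients, and WW mice were wild type on both sides. Each group had 2 mice and each mouse 1 array of whole lung RNA. All 8 mice were transplanted and received the toxin, so no array shows a lung without it, and how much of each recipient's own blood cells remained is not given in the sources used here. In whole lung RNA, fewer cells of a type and less RNA per cell cannot be told apart.

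Levels below are log2 intensities relative to the 75th percentile of the array, so that a difference of 1 is a doubling and 0 is the 75th percentile itself. Endothelial and alveolar type 2 marker lists stood at means of 3.54 to 3.81 and 4.30 to 6.26 on the 8 arrays. The WL mice were the least alike of the 4 pairs. Across the 25830 genes, WL replicate 1 correlated at 0.99 with both WW arrays, WL replicate 2 at 0.953 to 0.955 with the WW arrays and at 0.968 and 0.976 with the LL arrays, and the pair itself at 0.96, against 0.99 to 0.992 within the other pairs. These correlations are across genes, which are not independent replicates. A mix-up of samples and an unequal effect of the toxin in the WL mice cannot be told apart from the labels, and this bears on every WL value below. Since 1 model with a common spread was fitted to all 8 arrays, the WL pair also widens the errors of comparisons that do not use it, and results are therefore also given without the WL arrays. In the array barcodes the first number after that of the slide was 1 for LysM-DTR recipients and 2 for wild-type recipients. The next number was 1 or 2 for LysM-DTR donors and 3 or 4 for wild-type donors. Neither recipient genotype nor donor genotype can be told apart from the part of the slide. Whether these numbers stand for rows or columns was not looked up.

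Coagulation starts when tissue factor, a membrane protein of cells outside the blood, binds factor VII and activates factor X, which leads to thrombin, and thrombin turns fibrinogen into fibrin. Factor XIII then links the fibrin strands. The process is held back by tissue factor pathway inhibitor and, on endothelium, by thrombomodulin and the endothelial protein C receptor, which together let thrombin activate protein C. Fibrin is removed by plasmin, which the plasminogen activators of urokinase type and tissue type release from plasminogen. In the lung these proteins come from endothelium, epithelium, fibroblasts and macrophages, and fibrin in the air spaces is a known feature of acute lung injury.

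Promoter sequences are from RefSeq on GRCm38.p6, whose table covered 6 of the 9 genes with 8 windows. Each was searched over the 250 bases before the first base of the gene, on both strands, for the letters TGANTCA (the AP-1 motif), GGGCGG (Sp1) and CCACCC (KLF). AP-1 letters were in the windows of F3, Procr and Plaur and in none of the other 5 windows of these genes, against 6.7% of all 32851 windows of the same length. Sp1 letters were in 32.7% and KLF letters in 28.1% of all windows. The 3 windows with AP-1 letters are printed, with 1 of the F13a1 windows as an example without them. Both Tfpi windows also lacked AP-1 letters, although Tfpi, like F3, Procr and Plaur, stood higher in LL than in WW. Plat and Plau, which also stood higher, and Thbd had no window. A relation between motifs and levels was not tested. Capitals mark the motif letters on either strand, and sequences run 5′ to 3′ along the gene.
F3, chr3:121723287-121723536, plus strand: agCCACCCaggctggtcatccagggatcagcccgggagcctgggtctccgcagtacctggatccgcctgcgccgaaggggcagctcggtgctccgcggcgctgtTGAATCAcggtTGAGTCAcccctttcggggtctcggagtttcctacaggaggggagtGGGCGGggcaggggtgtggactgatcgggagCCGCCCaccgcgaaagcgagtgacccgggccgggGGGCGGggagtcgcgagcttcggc
Procr, chr2:155750967-155751216, plus strand: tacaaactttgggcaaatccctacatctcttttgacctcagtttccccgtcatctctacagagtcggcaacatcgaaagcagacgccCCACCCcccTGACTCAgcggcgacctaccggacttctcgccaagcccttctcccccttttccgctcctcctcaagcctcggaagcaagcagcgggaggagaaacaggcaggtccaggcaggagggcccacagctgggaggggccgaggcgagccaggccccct
Plaur, chr7:24462233-24462482, plus strand: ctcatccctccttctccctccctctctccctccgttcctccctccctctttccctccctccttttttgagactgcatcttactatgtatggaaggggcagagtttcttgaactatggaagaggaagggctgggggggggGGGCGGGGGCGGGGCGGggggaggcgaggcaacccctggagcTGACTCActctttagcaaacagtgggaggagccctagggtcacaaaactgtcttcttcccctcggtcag
F13a1, chr13:37049214-37049463, minus strand: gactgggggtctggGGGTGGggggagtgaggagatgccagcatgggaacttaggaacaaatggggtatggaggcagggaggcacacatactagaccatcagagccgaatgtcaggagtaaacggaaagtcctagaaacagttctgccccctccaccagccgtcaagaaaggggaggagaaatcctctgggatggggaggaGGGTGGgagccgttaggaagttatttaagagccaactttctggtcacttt

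Counted back from the gene's first base, the AP-1 letters began at -146 and -135 in F3, at -154 in Procr and at -69 in Plaur. F3 had Sp1 letters at -89, -58 and -24, and Plaur at -111, -105 and -100, of which the last pair overlap by 1 base. KLF letters were at -248 in F3, at -163 in Procr, and at -236 and -50 in the F13a1 window shown. The F3 window was 70.0% G and C, that of Procr 61.6%, that of Plaur 59.6% and that of F13a1 54.4%, against a median of 52.4% over all windows. A match describes letters in a window and is not a measured site.

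Probes are placed on mm9, as annotated in the array files, and the parts of the genes they lie in were not analysed here. The first 30 of the 60 bases of the probes on which the values below mostly rest are these, with the probes of F13a1 and Tfpi shown because those genes have several that can be compared.
F3, probe A_55_P1971889, chr3:121437717-121437776: ctgacaatgatggggtttaaacatttgaca
Tfpi, probe A_55_P2506165, chr2:84273055-84273114: gccagttatgatcacaaacattacataccc
Tfpi, probe A_52_P670263, chr2:84281022-84281081: tggtaaccctaactcactttaggtttatag
Tfpi, probe A_51_P383210, chr2:84283118-84283177: ttgtgggtagacctacctgatcattcttgg
Tfpi, probe A_52_P631889, chr2:84313860-84313919: tgaagacggtataattttgggacctcatct
Procr, probe A_51_P382152, chr2:155580945-155581004: ggcagacttactgtaggcattcaaaacatc
Plat, probe A_52_P409833, chr8:23892531-23892590: aaggttacgaattacctagactggattcac
F13a1, probe A_51_P507801, chr13:36959214-36959273: ctggtttacttctaagtcattgataggttc
F13a1, probe A_55_P2739032, chr13:37061516-37061575: aaattagaatggcatcccagcacagtcagg
F13a1, probe A_55_P2186125, chr13:37063829-37063888: ctgaatgacattggagtgatattttatggg

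F3, which encodes tissue factor, was high in 3 of the 8 lungs. It stood at 5.19 and 4.84 in the LL mice, at 2.18 and 6.75 in the WL mice, at 2.64 and 2.54 in the LW mice and at 2.70 and 2.43 in the WW mice. Both LL mice and WL replicate 2 lay above 4.8, and the other 5 arrays lay within 2.18 to 2.70. The LL mean of 5.01 ± 0.25 (SD, n = 2) was 5.45-fold above the WW mean of 2.57 ± 0.19, a log2 difference of 2.45 (SE 1.31, adjusted p = 0.285, limma with Benjamini-Hochberg adjustment over all genes). With the WL arrays left out the difference of 2.45 had an SE of 0.166 and an adjusted p of 0.00219. The WL mice differed from each other by 4.57, or 23.8-fold, and only 0.186% of all genes had a gap at least as large in that pair. WL against WW therefore gave 1.90 (SE 1.31, adjusted p = 0.497), but 4.18 (SE 0.204, adjusted p = 0.00282) from WL replicate 2 alone and -0.39 (adjusted p = 0.933) from WL replicate 1 alone, where the single mouse is assumed to vary like the others.

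Tfpi, which encodes the inhibitor of the tissue factor and factor VIIa complex, moved over a narrower range. It stood at 0.62 and 0.65 in LL, at 0.15 and 1.19 in WL, at 0.15 and 0.03 in LW and at 0.03 and -0.21 in WW. Both LL arrays lay above all 4 arrays of wild-type recipients, and WL replicate 2 was the highest. LL exceeded WW by 0.72 (SE 0.329, adjusted p = 0.23), and by the same 0.72 with an adjusted p of 0.0112 without the WL arrays. The 4 Tfpi probes gave different sizes for LL against WW. They were 0.17 (SE 0.224) for probe A_52_P670263, 0.72 (SE 0.329) for the brightest probe, 0.76 (SE 0.173, adjusted p = 0.0785) for A_52_P631889 and 1.43 (SE 0.335, adjusted p = 0.0825) for A_51_P383210. The last was well above background on 6 arrays only, with 1 of the 2 arrays of LW and of WW below that limit.

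Thbd, which encodes thrombomodulin, was the member that varied least. It stood at 5.53 and 5.14 in LL, at 5.46 and 4.74 in WL, at 5.48 and 5.34 in LW and at 5.53 and 5.55 in WW. The lowest array was WL replicate 2, the array on which F3 was highest, and LL overlapped WW. LL against WW was -0.20 (SE 0.264, adjusted p = 0.646) and WL against WW -0.44 (SE 0.264, adjusted p = 0.486). From WL replicate 2 alone the latter was -0.79 (adjusted p = 0.0283), and from WL replicate 1 alone -0.08 (adjusted p = 0.999).

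Procr, which encodes the endothelial protein C receptor, was the only one of the 9 genes whose 4 arrays from LysM-DTR recipients all lay above the 4 from wild-type recipients. It stood at 1.54 and 2.22 in LL, at 0.69 and 1.38 in WL, at 0.29 and 0.09 in LW and at 0.54 and 0.34 in WW. Over all genes, 17.6% kept the 2 kinds of recipient apart in this way, in either direction. The recipients differed by 1.14 (SE 0.219, adjusted p = 0.0704), with an exact two-sided permutation p of 0.0286, the smallest that 4 arrays against 4 can give; the 9 genes were each tested this way. LL exceeded WW 2.71-fold, a log2 difference of 1.44 (SE 0.31, adjusted p = 0.0687), and without the WL arrays the adjusted p was 0.0121. LL also lay above WL, by 0.85 (SE 0.31, adjusted p = 0.287), with no overlap of the arrays.

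**Figure D1:**
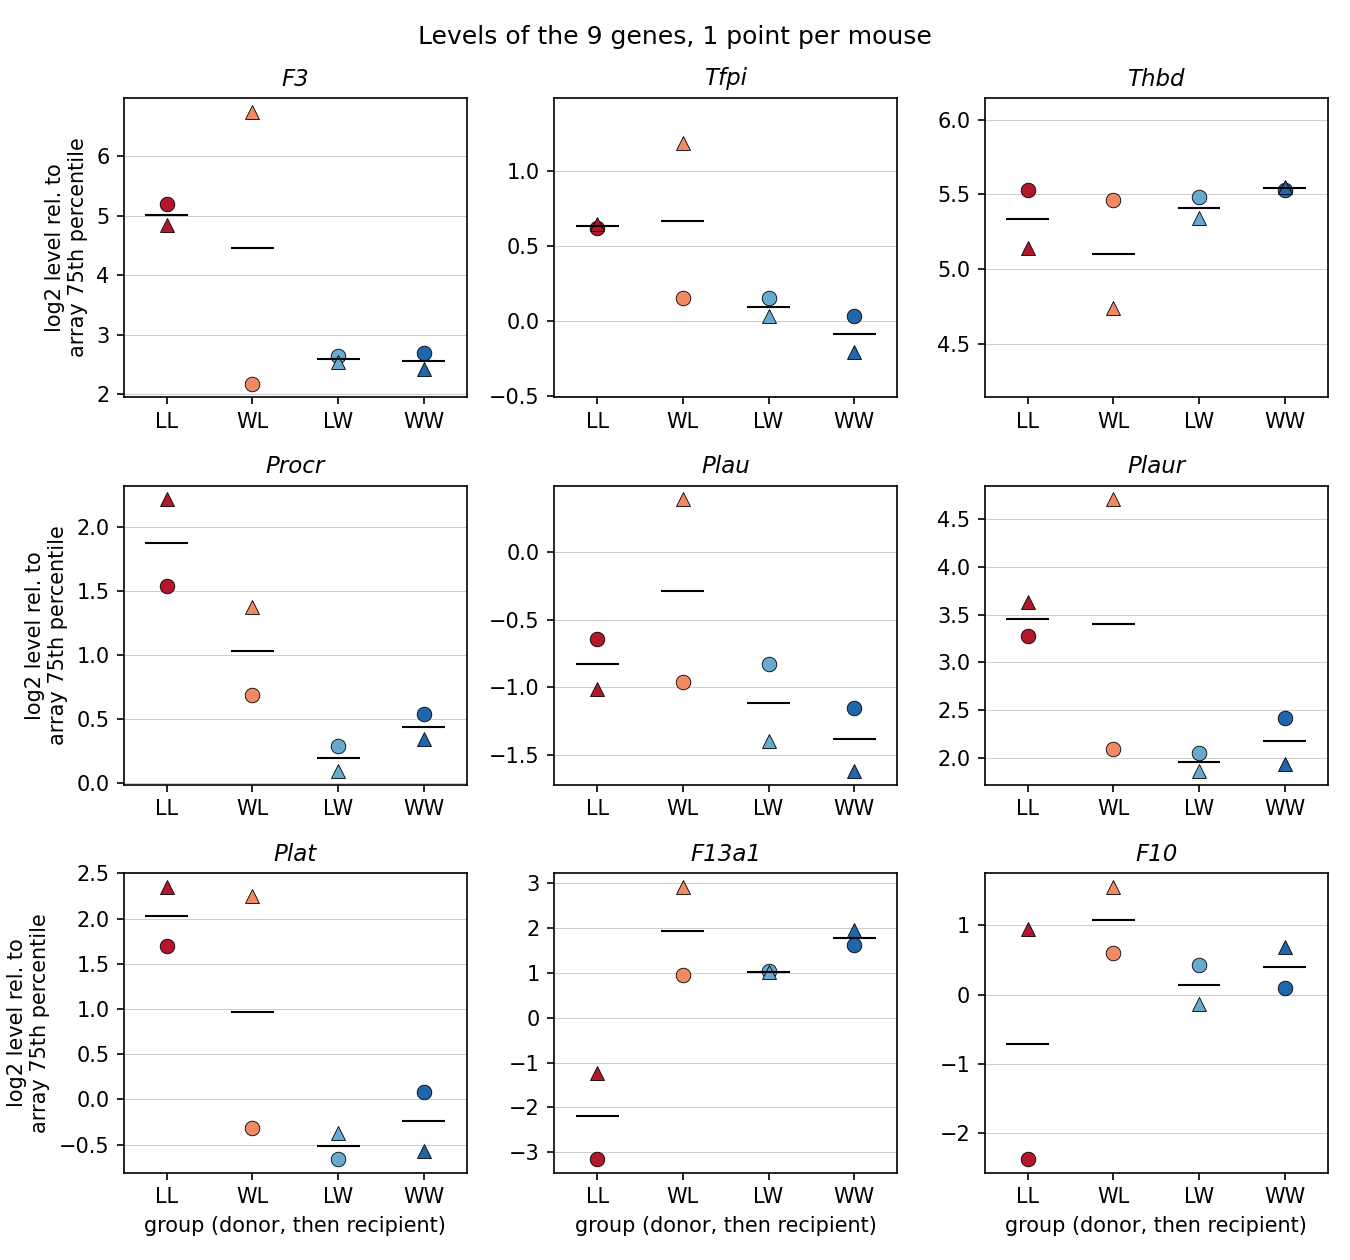
Log2 level relative to the array's 75th percentile (vertical axes, 1 scale per gene) of the 9 genes in the 4 groups; circles are replicate 1, triangles replicate 2 and bars the group means. F3, Plaur and Plat are high in both LL mice and in WL replicate 2, whereas F13a1 is low in both LL mice.

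The plasminogen activators and the urokinase receptor were next. Plat, which encodes tissue-type plasminogen activator, stood at 1.70 and 2.35 in LL, at -0.32 and 2.25 in WL, at -0.66 and -0.37 in LW and at 0.08 and -0.57 in WW. As with F3, both LL mice and WL replicate 2 stood apart from the other 5 arrays, which were at or below 0.08. LL exceeded WW 4.81-fold, a log2 difference of 2.27 (SE 0.791, adjusted p = 0.16), and the adjusted p was 0.00708 without the WL arrays. A second Plat probe, A_52_P405772, gave 1.31 (SE 0.638, adjusted p = 0.253) for LL against WW and 0.08 (SE 0.638, adjusted p = 0.952) for WL against WW.

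Plaur, which encodes the cell surface receptor of urokinase, stood at 3.28 and 3.63 in LL, at 2.09 and 4.71 in WL, at 2.05 and 1.86 in LW and at 2.42 and 1.94 in WW. The same 3 arrays were again the highest, and WL replicate 1 lay among those of wild-type recipients. LL exceeded WW 2.42-fold, by 1.28 (SE 0.775, adjusted p = 0.335), and the adjusted p was 0.0113 without the WL arrays. The gap of 2.62 between the WL mice was reached by 1.44% of all genes, and that of 2.58 for Plat by 1.53%.

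Plau, which encodes urokinase itself, differed less between groups than its receptor did. It stood at -0.64 and -1.01 in LL, at -0.96 and 0.39 in WL, at -0.83 and -1.40 in LW and at -1.15 and -1.62 in WW. Only WL replicate 2 was clearly above the rest, and the LL mice overlapped the LW mice. LL against WW was 0.57 (SE 0.466, adjusted p = 0.462), and the adjusted p was 0.17 without the WL arrays. The dimmer Plau probe, A_51_P305311, was well above background on both WL arrays, on 1 LL array and on no array of wild-type recipients, and put WL at least 1.23-fold above WW (adjusted p = 0.487). The bound compares the WL mean with the lowest signal that counts as above background on the WW arrays.

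**Figure D2:**
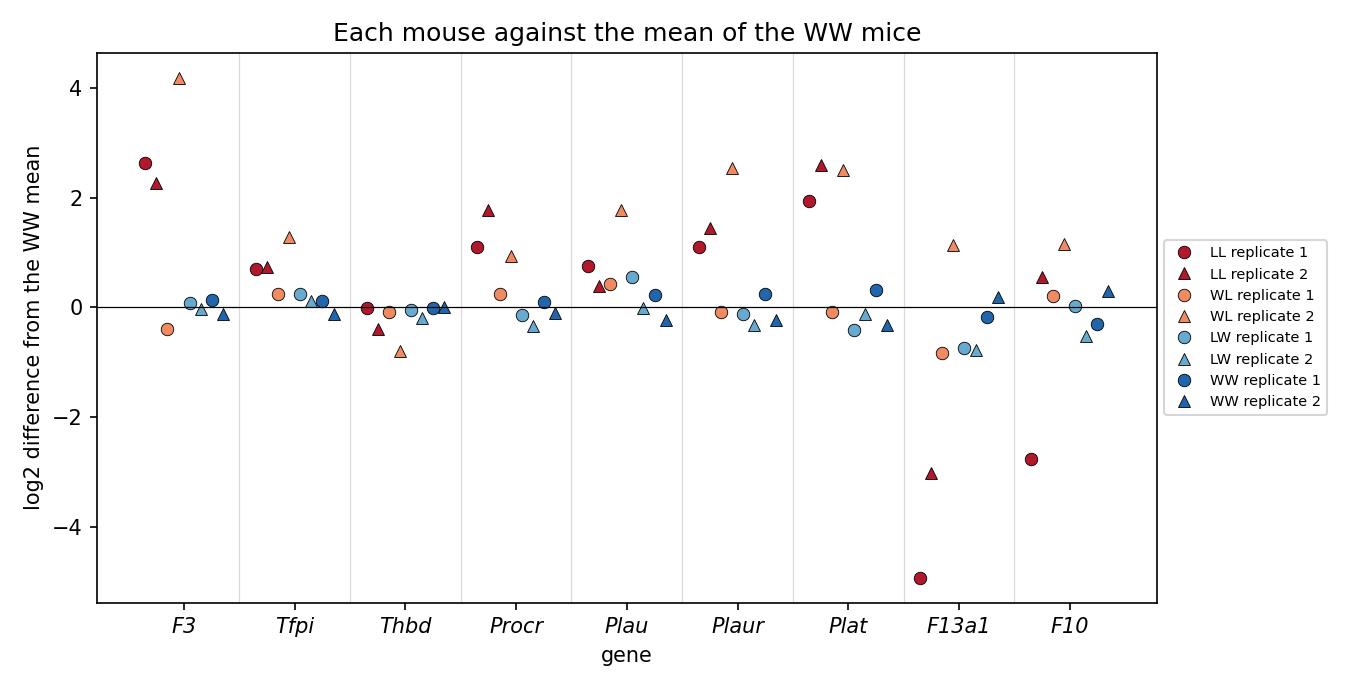
Log2 difference of each mouse from the mean of the WW mice (vertical axis) for the 9 genes; colours are groups, circles replicate 1 and triangles replicate 2. WL replicate 2 is at 4.18 for F3, 2.53 for Plaur and 2.50 for Plat, where WL replicate 1 is at -0.39, -0.09 and -0.08.

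F13a1, which encodes the A chain of factor XIII and is made by monocytes, macrophages and megakaryocytes, lay the other way. It stood at -3.15 and -1.23 in LL, at 0.95 and 2.91 in WL, at 1.04 and 1.01 in LW and at 1.61 and 1.96 in WW. Both LL mice lay more than 2 log2 units below every other array. The LL mean of -2.19 ± 1.36 (SD, n = 2) was 15.7-fold below the WW mean of 1.79 ± 0.25, a log2 difference of -3.97 (SE 0.797, adjusted p = 0.0582), and the adjusted p was 0.00947 without the WL arrays. The difference was -3.02 (adjusted p = 0.226) without LL replicate 1 and -4.93 (adjusted p = 0.0896) without LL replicate 2, so that its size depended on which LL mouse was used. LL lay below WL by -4.12 (SE 0.797, adjusted p = 0.074) on the log2 scale.

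A second F13a1 probe on the same strand, A_55_P2739032, showed the LL mice closer to each other. Its levels were -4.72 and -4.74 in LL, -2.01 and -0.53 in WL, -2.15 and -2.14 in LW and -1.50 and -1.05 in WW. In a fit over all 39595 probes with a value on every array, F13a1 fell on this probe by 3.46 in LL against WW (SE 0.453, adjusted p = 0.0215) and by 3.46 against WL (SE 0.453, adjusted p = 0.0256). Of all probes, 2.79% were called in the first comparison and 1.50% in the second. The call was lost when any single LL, LW or WW array was left out (adjusted p from 0.0573 to 0.133 against WW and from 0.069 to 0.166 against WL), with the difference between -3.68 and -3.23 and between -3.47 and -3.45 respectively. Leaving out a WL array kept both calls, but moved the difference from WL to -4.20 without WL replicate 1 (adjusted p = 0.0103) and to -2.72 without WL replicate 2 (adjusted p = 0.0054). The third probe, A_55_P2186125, was not well above background on either LL array and put WL at least 2.17-fold above LL (adjusted p = 0.0702).

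F10, which encodes factor X, the enzyme that turns prothrombin into thrombin, showed no common level in LL. It stood at -2.37 and 0.95 in LL, at 0.60 and 1.55 in WL, at 0.42 and -0.13 in LW and at 0.10 and 0.69 in WW. The 2 LL mice were the lowest and the second highest of the 8. Their gap of 3.31, or 9.95-fold, was reached by 0.089% of all genes in that pair, against a median gap of 0.17. LL against WW was -1.10 (SE 1.01, adjusted p = 0.508), and 0.55 (adjusted p = 0.574) without LL replicate 1.

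**Figure D3:**
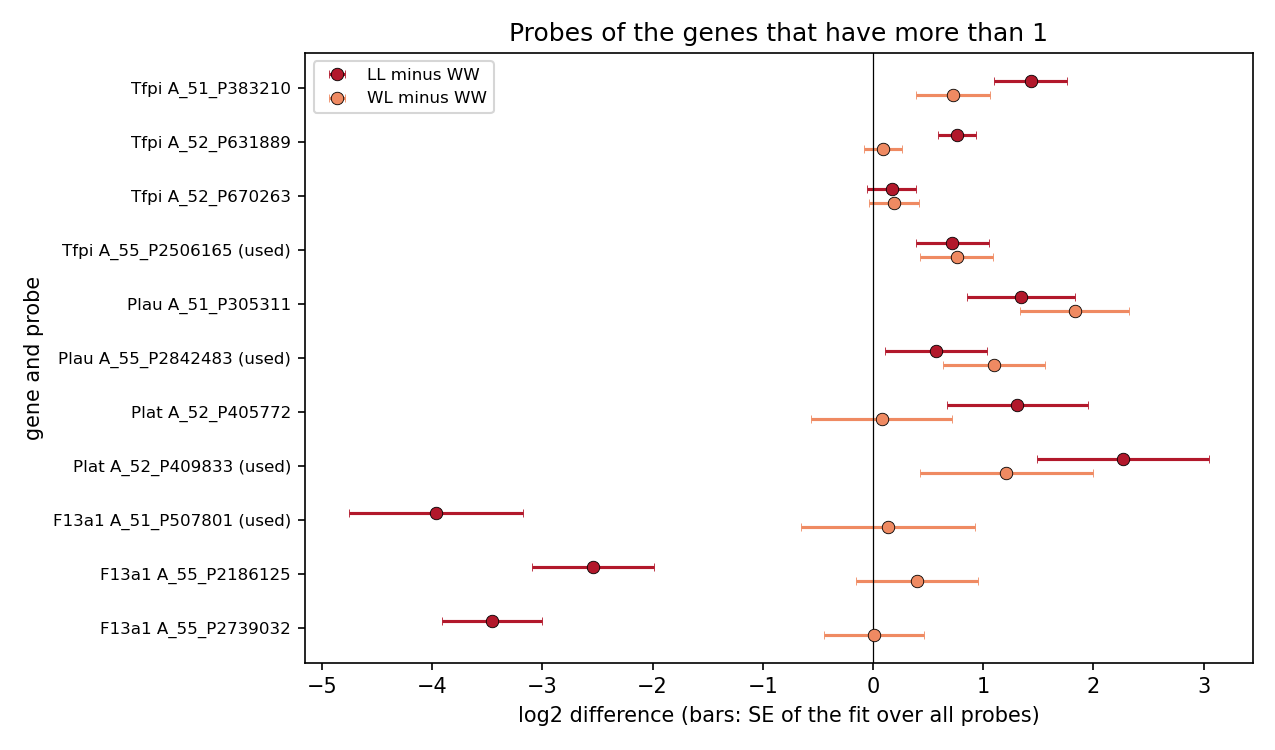
Log2 differences of LL and WL from WW (horizontal axis) for each probe of the 4 genes with more than 1 probe; bars are the SE of the fit over all probes. The 3 F13a1 probes are at -3.97, -2.54 and -3.46 in LL and the 4 Tfpi probes run from 0.17 to 1.43; the differences of F13a1 probe A_55_P2186125 and Plau probe A_51_P305311 are as measured, with groups that are not well above background.

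In LL against WW, 0 of the 9 genes were called with limma at an adjusted p under 0.05, against 3.13% of all genes. Of the 9, 3 (Procr, Plat and F13a1) had an unadjusted p under 0.05, as had 6402 of all 25830 genes. The arrays of LL and WW did not overlap for 7 of the 9, with F3, Tfpi, Procr, Plau, Plaur and Plat higher and F13a1 lower, against 69.5% of all genes, so that this share is close to the background. The median difference of the 9 genes was 0.72, and that of all genes 0.03. Without the WL arrays, 6 of the 9 were called: F3, Tfpi, Procr, Plaur and Plat higher and F13a1 lower. That fit called 32.9% of all genes. The count was also 6 when either WL array alone was left out, and in a fit of LL and WW alone, which called 25.5% of all genes.

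WL against WW called 0 of the 9 genes and 1 of all 25830 (0.00387%). No member had an unadjusted p under 0.05 there, against 2112 of the 25830 genes. Arrays did not overlap for 4 of the 9 (Tfpi, Procr and Plau higher, Thbd lower), against 42.0% of all genes. The medians were 0.76 for the 9 genes and -0.05 for all genes. When WL replicate 1 was left out, so that WL rested on 1 mouse, 6 of the 9 were called (F3, Tfpi, Plau, Plaur and Plat higher, Thbd lower) and 37.7% of all genes. When WL replicate 2 was left out instead, none of the 9 was called.

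LW against WW gave differences of -0.76 to 0.27 for the 9 genes. Their median was -0.22, against -0.02 for all genes. None was called, against 0.0542% of all genes (14 genes), and none had an unadjusted p under 0.05, against 569 of the 25830 genes. Thbd, Procr and F13a1 were lower on both LW arrays than on both WW arrays, as were 20.1% of all genes, and 33.9% did not overlap in either direction. F13a1 had the largest of these differences, -0.76 (SE 0.797, adjusted p = 1).

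Recipient genotype, averaged over donors, called 0 of the 9 genes and 1.27% of all genes. Tfpi, Procr, Plaur, Plat and F13a1 had an unadjusted p under 0.05, as had 8059 of all 25830 genes. Besides Procr, the differences were 2.16 for F3 (adjusted p = 0.169), 1.87 for Plat (adjusted p = 0.117), 1.36 for Plaur (adjusted p = 0.155), 0.65 for Tfpi (adjusted p = 0.134) and -1.53 for F13a1 (adjusted p = 0.138). Their exact two-sided permutation p-values were 0.143, 0.0571, 0.0571, 0.0571 and 0.314. F13a1, the one of these that was lower, had its low values on the LL arrays and not on the WL arrays. Whether the recipient's effect depended on the donor was tested by the interaction of donor and recipient, which called 0 of the 9 genes and 0.0619% of all genes. Procr, at 1.10 (SE 0.438, adjusted p = 0.531), and F13a1, at -3.36 (SE 1.13, adjusted p = 0.43), had an unadjusted p under 0.05. So had 2360 of all 25830 genes. LL against WL called none of the 9 and 1.72% of all genes, and arrays did not overlap for Procr and F13a1, against 37.8% of all genes. These comparisons share arrays, LL and WW among them, and are not independent of each other.

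Fibrin formation beyond the 9 genes was followed over 19 other coagulation factors and related genes, of which 14 could be tested. In LL against WW, 0 of the 14 rose and F5 and F7 fell, with a median of -0.07, where 1.21% of all genes were called higher and 1.92% lower. F5, the cofactor of factor Xa, stood at -3.16 and -2.88 in LL, -1.18 and -0.74 in WL, -0.91 and -1.09 in LW and -0.65 and -0.01 in WW. Both LL mice were below all other arrays. F5 fell by 2.69 against WW (SE 0.271, adjusted p = 0.0135) and by 2.06 against WL (SE 0.271, adjusted p = 0.0257). F7, the partner of tissue factor, stood at -4.24 and -3.84 in LL, against -1.87 to -0.28 on the other 6 arrays. It fell by 3.15 against WW (SE 0.543, adjusted p = 0.0415), in a direction opposite to that in which F3 stood. In LL against WL the 2 genes called of the 14 were F5 and Fgl2, a fibrinogen-related protein with prothrombinase activity, which fell by 1.30 (SE 0.214, adjusted p = 0.0481), where 1.72% of all genes were called.

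These calls depended on single arrays, but not these calls alone. Without any 1 LL, LW or WW array, far fewer of all genes were called in the same comparisons, and such a fit leaves 1 mouse in a group. F5 against WW was lost without any 1 of the LL or WW arrays, with the difference between -3.01 and -2.37. F7 was also lost without either LW array, with the difference between -3.34 and -2.95 over those 6. With another background correction (normexp) the differences were -1.47 for F5 (adjusted p = 0.0208) and -1.38 for F7 (adjusted p = 0.112). Against WL, F5 was lost without any 1 of the LL or LW arrays (adjusted p from 0.0703 to 0.175) and with normexp, where it was -0.99 (adjusted p = 0.0648). Fgl2 was lost without LL replicate 1, either LW array or either WW array (adjusted p from 0.126 to 0.159). Without the filter on dim probes F7 against WW (adjusted p = 0.0705) and Fgl2 against WL (adjusted p = 0.0878) were not called, and Fgl2 was also lost under both other scalings of the arrays.

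The fibrinogen chains are made mainly by the liver, and in these lungs they were dim. Fgb did not pass the filter, Fga stood between -4.15 and -3.44 on all arrays, and Fgg ran from -5.91 to 0.42. LL against WW was 0.29 for Fga (SE 0.159, adjusted p = 0.289) and -1.81 for Fgg (SE 1.54, adjusted p = 0.478). The highest Fgg level was on LW replicate 2, which stood apart in genes of the liver. Its mean over 5 hepatocyte markers was 3.24, against -1.42 to 0.25 on the other arrays, and F2 and Kng1, named after their values were seen, stood there 3.79 and 3.54 above the WW mean. F10, also a liver product, was at -0.13 on that array and so not among the genes that stood high there. The part of liver RNA in the results was not tested. Vwf, the adhesion protein of endothelium and platelets, stood at 6.47 and 6.83 in LL, 5.53 and 6.39 in WL, 5.61 and 5.57 in LW and 5.64 and 5.76 in WW. It was 0.94 higher in LL than in WW (SE 0.295, adjusted p = 0.136).

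Of 10 other anticoagulant genes, 8 were tested and 0 called in LL against WW, with a median of -0.02, where 3.13% of all genes were called. Pros1, the cofactor of activated protein C, ran only from 3.67 to 3.97 over all arrays. Of 12 other genes of fibrinolysis and its inhibitors, 11 were tested and 0 called, against the same 3.13% of all genes, with a median of 0.32. With lists this short, 0 is close to the background.

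Anxa2 and S100a10 encode the complex that holds plasminogen and tissue-type activator on cells. S100a10 stood at 4.35 and 4.29 in LL, at 3.39 and 5.10 in WL, at 3.47 and 3.32 in LW and at 3.33 and 3.35 in WW, and Anxa2 ran from 7.55 to 7.86 on the LL arrays and WL replicate 2 and from 6.76 to 6.96 on the other 5. LL against WW was 0.98 for S100a10 (SE 0.506, adjusted p = 0.27) and 0.66 for Anxa2 (SE 0.29, adjusted p = 0.218). Serpinb2, an inhibitor of urokinase, was not well above background on either LW array and on 1 array each of LL and WW, and LL against WW was 0.32 (SE 0.838, adjusted p = 0.827).

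Thrombin acts on cells through protease-activated receptors, of which 3 of 4 were tested. F2rl2, the receptor that helps thrombin cleave other receptors of the family and is known from platelets and megakaryocytes in the mouse, stood at -3.65 and -3.37 in LL, -1.17 and -1.35 in WL, -0.96 and -1.62 in LW and -0.89 and -0.60 in WW. Both LL arrays were lowest. F2rl2 fell by 2.77 against WW (SE 0.257, adjusted p = 0.0115) and by 2.26 against WL (SE 0.257, adjusted p = 0.0185). The first call was lost without LL replicate 1 or either WW array, with the difference between -2.91 and -2.62. The second was lost without any 1 of the LL or WW arrays, with the difference between -2.40 and -2.12. Far fewer of all genes were called in these fits as well. In a fit of the LL and WL arrays alone none of F5, Fgl2 and F2rl2 was called, but that fit called 0 of all 25502 genes tested in it. With normexp the difference from WW was -1.45 (adjusted p = 0.0164), and that from WL -1.04 (adjusted p = 0.0384). F2r, the main thrombin receptor of stromal cells and endothelium, stood at 5.02 and 4.97 in LL and at 4.88 in WL replicate 2, against 3.79 to 3.98 on the other 5 arrays. It was 1.08 higher in LL than in WW (SE 0.337, adjusted p = 0.136).

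In the comparison of recipients, F5 fell by 1.32 (SE 0.192, adjusted p = 0.0407) and F2rl2 by 1.37 (SE 0.182, adjusted p = 0.0359). They were the only called genes of these 4 lists, where 1.27% of all genes were called. Both calls were lost without any 1 of the LL, LW or WW arrays, where far fewer of all genes were called. The differences there were -1.48 to -1.16 for F5 and -1.53 to -1.20 for F2rl2. Both calls were also lost without the filter (adjusted p of 0.0725 and 0.0666). With normexp the differences were -0.72 (adjusted p = 0.0796) and -0.74 (adjusted p = 0.0616). None of the genes on the 4 lists was called in WL against WW, in LW against WW or in the interaction. Of all genes 0.00387%, 0.0542% and 0.0619% were called there.

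**Figure D4:**
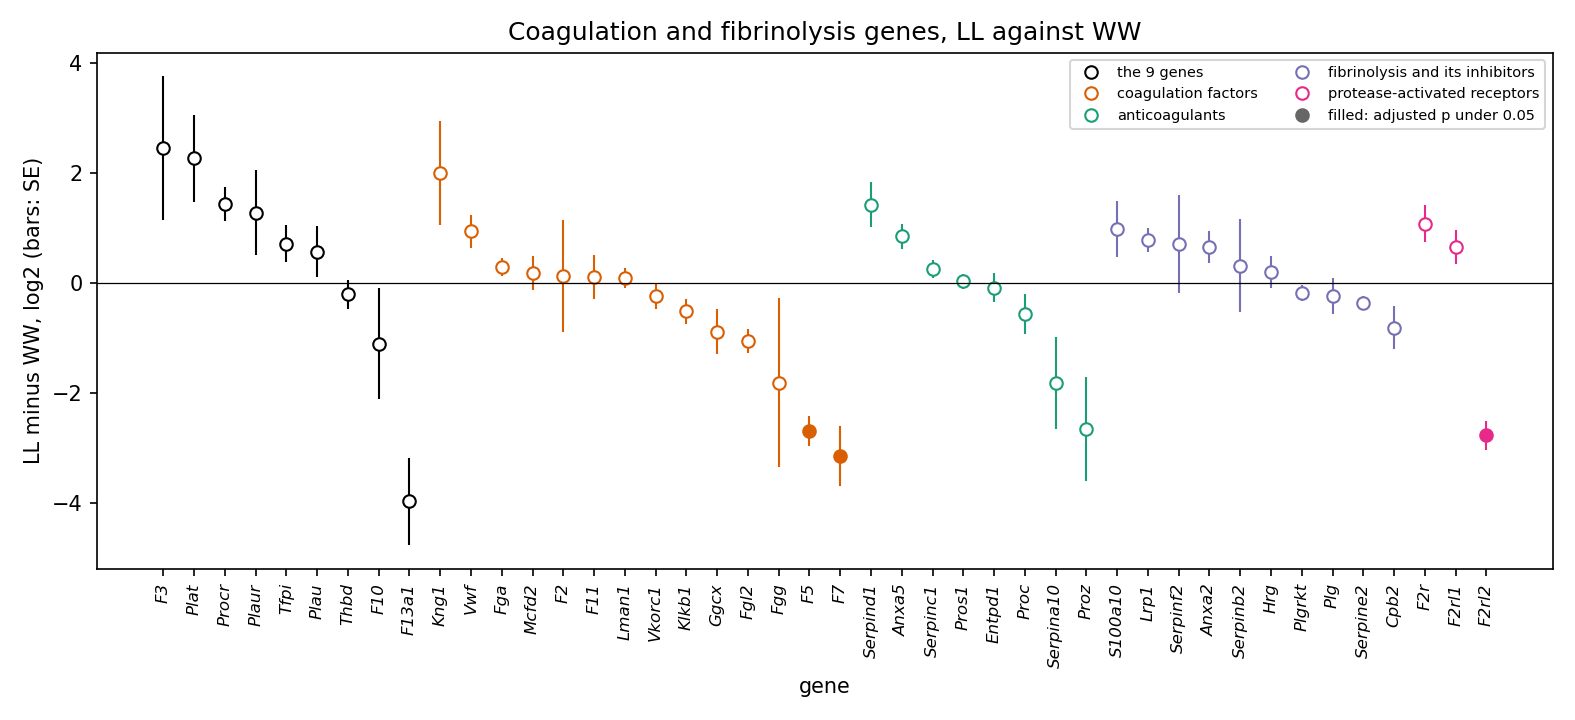
Log2 difference of LL from WW (vertical axis) for the 9 genes and the tested genes of the 4 lists that are reported here; bars are SE and filled points are called at an adjusted p under 0.05. F5, F7 and F2rl2 are the called genes, at -2.69, -3.15 and -2.77.

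Markers of several cell types differed between the same groups. Lyz2, the gene of lysozyme M, stood at 4.67 and 4.94 in LL, at 8.70 and 7.36 in WL and at 8.84 to 9.09 in LW and WW, and fell by 4.27 in LL against WW (SE 0.408, adjusted p = 0.0122). That call was lost without any 1 of the LL or WW arrays, where the difference was -4.40 to -4.13 and far fewer of all genes were called. The mouse Hbegf gene, whose primate form serves as the toxin receptor, was 1.82 higher in LL than in WW (SE 0.499, adjusted p = 0.108). Platelet markers fell in LL against WW for 9 of 10, where 1.92% of all genes were called lower, with list means of -3.97 and -4.12 in LL against -1.34 to -0.12 on the other 6 arrays, and 3 of the 10 were not well above background on either LL array. The log2 of their summed level was 0.38 to 0.44 in LL and 4.03 to 4.57 in WW. Fewer platelet markers were called when any 1 LL, LW or WW array was dropped, with few or none of the list left without a WW array. Those fits leave 1 mouse in a group, and far fewer of all genes were called in them as well.

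Monocyte and macrophage markers fell for 10 of 12, against the same 1.92% of all genes, with list means of -2.00 and -1.76 in LL against 1.32 to 2.54 elsewhere. Fewer of these markers were called when any 1 LL, LW or WW array was left out, with the fewest left without WW replicate 1. Far fewer of all genes were called in those fits as well. Fcgr1 was not well above background on either LL array. Their summed level was higher in LL (8.15 and 8.44) than in WW (7.41 and 7.47), carried by Ly6c2; without that gene it was 3.79 and 3.56 in LL and 5.66 and 5.67 in WW. Alveolar macrophage markers fell for 4 of 10, with summed levels of 4.20 and 5.74 in LL and 6.60 and 6.83 in WW. Few or none of them were called when any 1 LL, LW or WW array was left out, where far fewer of all genes were called too. Of 8 neutrophil markers 0 were called in LL against WW. Their differences lay above 0 for 2 and below 0 for 6, with 1.57 for Ly6g and -3.30 for Cxcr2. The neutrophil list means were 1.75 and 2.91 in LL, 1.63 and 3.27 in WL and 2.40 and 3.21 in WW, so that mice of 1 group differed by more than the groups did. Of 11 endothelial markers 0 were called in LL against WW, where 3.13% of all genes were called. Without the WL arrays, 1 neutrophil marker was called higher and 1 lower. In the same fit 3 endothelial markers (Vwf, Cldn5 and Erg) were called higher and 1 lower, where 32.9% of all genes were called.

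F13a1, F5, F7 and F2rl2 were thus low on the arrays on which platelet, monocyte and macrophage markers were low. F10 was low on 1 of these 2 arrays, LL replicate 1, on which the neutrophil mean was 1.75, and not on LL replicate 2, on which it was 2.91. The lowest neutrophil mean, 1.63, was on WL replicate 1, where F10 stood at 0.60. F3, Plaur and Plat were high on both LL arrays and on WL replicate 2, on which alveolar type 2 means were 4.30, 4.46 and 4.51, against 6.05 to 6.26 on the other 5 arrays. On the same 3 arrays the summed level of 5 mesothelial markers was 7.20, 7.14 and 6.76, against 5.10 to 5.33 on the other 5, and that of 8 fibroblast markers was 7.35, 7.48 and 7.34, against 6.55 to 7.05. Among the mesothelial markers Msln and Krt19 were high on all 3 of these arrays, whereas Wt1 was high in LL alone, at 1.34 and 1.06 against -0.69 to -0.18 elsewhere. Wt1 was the 1 mesothelial marker called in LL against WW, where it rose by 1.83 (adjusted p = 0.0122). That call was lost without LL replicate 1 or either WW array. In LL against WW, 0 of the fibroblast and 0 of 8 alveolar type 1 markers were called. Of 10 alveolar type 2 markers 1 was called lower there, and it was Lyz2, which is also on that list. Of all genes 1.92% were called lower. Without the WL arrays, 4 of 5 mesothelial, 5 of 8 fibroblast and 5 of 8 alveolar type 1 markers were called higher. Called lower there were 1 fibroblast marker and 8 of 10 alveolar type 2 markers, and 32.9% of all genes were called either way. Alveolar type 1 markers had means of 5.52 and 5.37 in LL, 4.06 on WL replicate 2 and 4.78 to 5.04 on the other 5 arrays. Thbd stood between 4.74 and 5.55 where endothelial means were 3.54 to 3.81. The part of these cell types in the results was not tested.

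**Figure D5:**
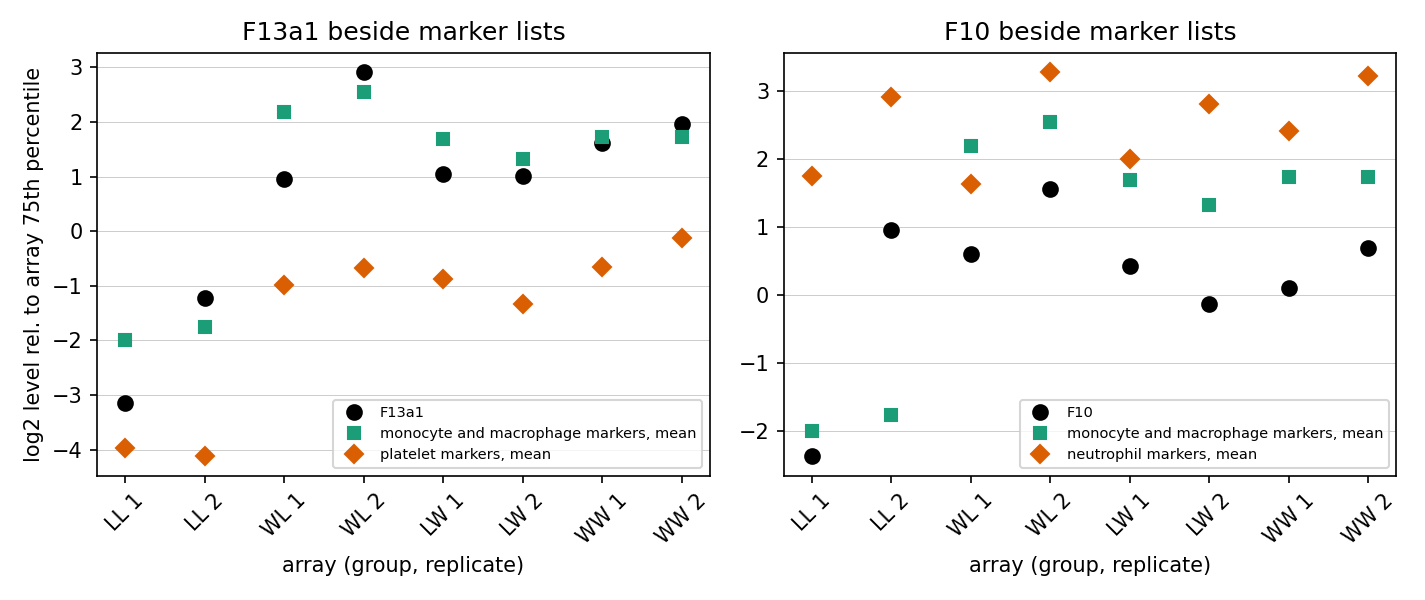
Log2 levels (vertical axes) of F13a1 (left) and F10 (right) on the 8 arrays beside the mean level of marker lists. The monocyte and macrophage mean is -2.00 and -1.76 on the LL arrays, where F13a1 is at -3.15 and -1.23 and F10 at -2.37 and 0.95.

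Among the 9 genes the patterns over the 8 arrays were compared by the mean absolute difference of levels, each taken relative to the gene's own mean. Tfpi and Plau were the closest pair, at 0.21, followed by Procr and Tfpi at 0.34, Procr and Plaur at 0.37 and Plaur and Plat at 0.38. F3 was nearest to Plat, at 0.50, and Plaur, at 0.61. F13a1 was 0.96 from F10 and at least 1.41 from each of the other 7. This measure favours genes of small range and is a description over 8 arrays.

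By the same measure over all tested genes with a gene symbol, the nearest to F3 were Fam71a (0.219), Tnfrsf12a (0.247) and Acsl6 (0.268). Fam71a and Acsl6 were well above background on only 3 of the 8 arrays, so their likeness rests on values with no measured level on the other 5; the other genes named by this measure were well above background on all 8. Tnfrsf12a, a receptor of the tumour necrosis factor family, stood at 4.34 and 4.39 in LL and at 1.56 and 5.29 in WL, with LW and WW within 1.32 to 1.70. Plat was nearest to Lox (0.157), the enzyme that cross-links collagen, Maff (0.161) and Ackr3 (0.162). Plaur was nearest to Mmp3 (0.108), a matrix protease, Trmt61a (0.119) and Srm (0.121). Procr was nearest to Ctsh (0.0973), Adamts9 (0.116) and Icam1 (0.133).

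Among the genes nearest to F13a1 were Ms4a6c (0.328) and Sirpb1b (0.341), both known from myeloid cells. Sirpb1b stood at -3.24 and -1.70 in LL and between 1.43 and 2.86 on the other arrays. F10 was nearest to Pira7 (0.3), Il1rn (0.313) and Pilra (0.314). Il1rn, the antagonist of the interleukin 1 receptor, stood at -4.64 and -1.41 in LL, with a gap between the LL mice on the same side as that of F10. Tfpi was nearest to Nup205, Psmb1 and Zfp207 (0.0328 to 0.0497), Thbd to Bbs10, Arhgap17 and Zfp286 (0.0482 to 0.0523), and Plau to Urb2, Fmn1 and Pfas (0.145 to 0.149).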

How the data were processed

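Total RNA of whole lungs was measured on Agilent arrays in 1 colour (Cy3). The deposited array files hold processed intensity values from Agilent Feature Extraction 11.5.1.1, background-subtracted per the file headers; the deposited series table holds log2 values that equal the log2 processed intensity minus a constant per array. Non-uniform spots (0 to 4 per array) were left out, spots of a probe averaged, and each array's 75th percentile subtracted from the log2 values (209 to 324 in intensity; 66.3% to 72.3% of spots above background, 0 saturated). The number of arrays limits the precision. A probe was kept if both arrays of any group were well above background (39602 probes), the brightest per gene used, and 4 group means fitted to all 8 arrays with limma 3.58.1 in R 4.3.3 (4 residual and 2.19 prior degrees of freedom), adjusted by Benjamini-Hochberg over 25830 genes. The fit was tested on simulated data.

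The 9 genes, the lists and the tests were chosen with earlier results of these data known. Named besides the 9 genes and their 3 most alike genes were other pathway genes that were called, a set list (Fga, Fgb, Fgg, Vwf, F2r, F5, F7, Pros1, Serpinb2, Anxa2, S100a10), Lyz2 and Hbegf; a few genes that the rule names are not reported here. Alternatives were other background corrections, normalisations, filters, probe summaries, variance models and samples in the fit; leaving out population outlier spots was added after seeing the data. All arrays were on 1 slide and in 1 scan. Figures were drawn with matplotlib 3.10.9.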

Additional observations from a re-analysis of the deposited data

How the results depend on the processing

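Of the differences of the 9 genes from the reported fit, 179 of 180 alternative values kept their direction for LL against WW, 166 of 171 for WL against WW, 173 of 180 for LW against WW, 163 of 171 for LL against WL, 157 of 162 for recipients and 157 of 162 for the interaction. Many of these alternatives could not turn a direction. Leaving out arrays of groups that are not compared, the replicate block and the variance model change the error and not the difference. High counts of kept directions were therefore partly fixed in advance. The count of called genes was 0 in every reported comparison. With the mean of a gene's probes it was 1 (F13a1) for LL against WW and 1 (F13a1) for LL against WL. With only the compared arrays, or without both WL arrays, it was 6 for LL against WW. Leaving out 1 array gave counts of 0 to 6 for LL against WW, 0 to 6 for WL against WW, 0 to 4 for LL against WL, 0 to 7 for recipients and 0 to 2 for the interaction. Every count above 0 in these came from leaving out a WL array, beside which the shares of all genes called in the same fits are these. Without WL replicate 1 and without WL replicate 2 respectively, they were 32.1% and 32.1% for LL against WW, 37.7% and 0.00387% for WL against WW, 9.55% and 19.6% for LL against WL, 48.5% and 13.2% for recipients and 0.863% and 8.52% for the interaction. As stated above, the WL pair widens the errors of comparisons that do not use it. For F3 in LL against WW the difference stayed at 2.45 without both WL arrays, while its SE went from 1.31 to 0.166. Why the WL mice differed was not tested, and a group left with 1 mouse is assumed to vary like the others.

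Deviations of replicate 1 from the group mean, taken across genes, correlated at -0.10 to 0.19 between groups. These correlations cannot show whether mice of the same replicate number were handled together. With the replicate number as a block the count was 1 for LL against WW (F13a1, adjusted p = 0.0493) and stayed 0 in the other comparisons, while the number of all genes called in LL against WW went from 808 to 447. F7 against WW, Fgl2 against WL, and F5 and F2rl2 between recipients were not called with the block.

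Directions that turned were mostly those of small differences. With the mean of a gene's probes, Tfpi was at 0.33 for LL against WL and 0.22 for the interaction, and with normexp F10 was at 0.10 between recipients. Leaving out 1 array turned the following, given as lowest to highest value. For LL against WW it was F10 (-2.76 to 0.55). For WL against WW these were F3 (-0.39 to 4.18), Plaur (-0.09 to 2.53), Plat (-0.08 to 2.50) and F13a1 (-0.84 to 1.13). For LW against WW these were F3 (-0.11 to 0.16), Plau (-0.01 to 0.56), Plaur (-0.46 to 0.01), Plat (-0.59 to 0.05) and F10 (-0.54 to 0.05). For LL against WL these were F3 (-1.73 to 2.84), Tfpi (-0.56 to 0.48), Thbd (-0.12 to 0.59), Plau (-1.21 to 0.14), Plaur (-1.25 to 1.37) and Plat (-0.23 to 2.35). Between recipients it was F10 (-0.92 to 0.74), and for the interaction these were F3 (-1.76 to 2.82), Tfpi (-0.73 to 0.30), Plaur (-1.02 to 1.60) and F10 (-3.20 to 0.12). Those that turned in LL against WL and WL against WW turned without a WL array, apart from Plaur (also without LL replicate 2) and F13a1 (also without WW replicate 1). With 2 mice a group, differences near the spread between mice could not be resolved.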
